A study of Mus musculus with 8 samples.

Results

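The piRNA pathway genes described here are 10 genes chosen by symbol for their known place in the pathway: Piwil2, Piwil4, Mael, Tdrd1, Tdrd5, Tdrd9, Tdrd12, Mov10l1, Asz1 and Gtsf1. They are 10 of the 24542 genes counted in each of 8 RNA-seq libraries. The cells are TX1072, a female mouse embryonic stem cell (ESC) line from a cross of Mus musculus castaneus (Cast) and C57BL/6 (B6), in which doxycycline (DOX) switches on Xist from the B6 X chromosome. WT cells (Hdac3+/+) and Hdac3KO cells (Hdac3-/-), which lack the histone deacetylase HDAC3, were each sampled before DOX (0 hr) and 24 hr into treatment with 1 μg per ml of it, which gives 4 groups of 2 libraries. All cells were grown on gelatin with serum, LIF and 2i, the pair of kinase inhibitors that keeps ESCs in the naive state. The WT libraries are duplicates of 1 line. The Hdac3KO libraries come from 2 clones made by CRISPR/Cas9 deletion, and the labels do not say which clone carries which replicate number. The spread between Hdac3KO libraries therefore includes differences between clones. That between WT libraries, which the study calls biological duplicates, includes no difference between lines. Except in the comparison of clones below, the p-values measure only these spreads.

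PIWI-interacting RNAs (piRNAs) are small RNAs of animal germ cells that are carried by PIWI proteins and guide the silencing of transposable elements. In the mouse male germline, long precursors are unwound by the helicase MOV10L1 and cut at the outer mitochondrial membrane, where ASZ1 (also called GASZ) acts as a scaffold. PIWIL2 (MILI) and PIWIL4 (MIWI2) are loaded with the products, Tudor domain proteins bind the methylated arginines of PIWI proteins, and PIWIL4 directs DNA methylation to transposons in fetal prospermatogonia. Loss of most of these genes arrests spermatogenesis. Many of them have CpG-rich promoters that are methylated and silent in somatic cells.

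Promoter sequences of 9 of the 10 genes were taken from RefSeq (GRCm38.p6), in 13 windows of 300 bases that run from 250 bases before to 50 bases after a start. No Piwil2 entry was used. These windows were searched on both strands for the E-box CACGTG and for an E2F-type motif, spelled GCGGGAA. These are the kinds of site bound by the MGA and E2F6 subunits of a Polycomb complex known to repress germline genes in ESCs. The E-box was present in 5 of the 13 windows, belonging to Mael, Tdrd9, Mov10l1 and Tdrd1 (2 overlapping windows with 1 shared E-box), against 7.15% of all 32851 promoter windows. The E2F-type motif was present in the Tdrd5 window alone, against 4.6% of all windows. The 250 bases before the start are printed for the genes with an E-box and for the other genes with a promoter entry whose levels differed between genotypes at 0 hr, each 5′ to 3′ with E-boxes in capitals.
Mael, chr1:166238745-166238994, minus strand: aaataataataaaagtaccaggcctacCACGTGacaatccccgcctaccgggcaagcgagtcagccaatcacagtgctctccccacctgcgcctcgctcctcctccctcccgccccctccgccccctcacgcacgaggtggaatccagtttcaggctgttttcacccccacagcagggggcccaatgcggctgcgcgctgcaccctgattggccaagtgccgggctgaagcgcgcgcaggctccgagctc
Tdrd9, chr12:111971309-111971558, plus strand: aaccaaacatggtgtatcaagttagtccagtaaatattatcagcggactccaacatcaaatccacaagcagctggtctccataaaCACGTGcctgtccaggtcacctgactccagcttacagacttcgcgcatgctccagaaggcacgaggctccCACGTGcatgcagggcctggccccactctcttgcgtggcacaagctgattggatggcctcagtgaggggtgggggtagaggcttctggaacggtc
Mov10l1, chr15:88982744-88982993, plus strand: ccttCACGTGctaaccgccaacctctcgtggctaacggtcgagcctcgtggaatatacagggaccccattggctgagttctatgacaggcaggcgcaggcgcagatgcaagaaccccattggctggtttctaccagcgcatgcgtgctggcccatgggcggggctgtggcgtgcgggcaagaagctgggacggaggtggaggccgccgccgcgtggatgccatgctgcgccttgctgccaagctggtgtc
Tdrd1, chr19:56825959-56826208, plus strand: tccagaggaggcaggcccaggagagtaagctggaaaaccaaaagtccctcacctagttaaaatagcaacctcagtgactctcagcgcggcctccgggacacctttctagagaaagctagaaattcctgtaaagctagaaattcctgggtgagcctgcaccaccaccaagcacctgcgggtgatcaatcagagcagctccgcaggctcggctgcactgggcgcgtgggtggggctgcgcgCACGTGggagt
Asz1, chr6:18109062-18109311, minus strand: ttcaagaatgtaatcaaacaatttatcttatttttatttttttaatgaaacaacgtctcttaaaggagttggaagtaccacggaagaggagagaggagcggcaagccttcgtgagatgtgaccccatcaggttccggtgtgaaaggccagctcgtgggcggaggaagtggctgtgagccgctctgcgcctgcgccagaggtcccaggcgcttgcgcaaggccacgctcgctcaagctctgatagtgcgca
Gtsf1, chr15:103430428-103430677, minus strand: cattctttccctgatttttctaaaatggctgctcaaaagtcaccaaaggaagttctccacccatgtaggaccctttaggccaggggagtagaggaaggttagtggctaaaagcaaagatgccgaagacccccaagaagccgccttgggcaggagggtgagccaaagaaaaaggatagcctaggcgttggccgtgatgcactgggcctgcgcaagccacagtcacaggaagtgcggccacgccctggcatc
Tdrd12, chr7:35537716-35537965, minus strand: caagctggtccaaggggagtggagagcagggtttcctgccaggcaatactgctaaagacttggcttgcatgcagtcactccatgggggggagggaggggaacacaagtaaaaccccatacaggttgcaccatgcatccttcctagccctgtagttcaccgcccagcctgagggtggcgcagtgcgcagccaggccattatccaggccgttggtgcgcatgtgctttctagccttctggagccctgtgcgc
The E-box begins 223 bases before the start in Mael, 165 and 95 bases before it in Tdrd9, 246 bases before it in Mov10l1 and 11 bases before it in Tdrd1. The windows of Asz1, Gtsf1 and Tdrd12 held neither motif. Over the 13 windows of 300 bases the number of CG dinucleotides ran from 0 to 48, around a median of 7 for all promoter windows. Tdrd5 had the 48 and a second start of Piwil4 the 0, and Mael, Asz1, Gtsf1 and Mov10l1 had 24, 17, 13 and 20. The other start of Piwil4 had 11 and Tdrd9 had 10, while the windows of Tdrd12 had 11 and 9 and those of Tdrd1 had 20, 25 and 3. The matches describe the letters only, and no binding was measured here.

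Libraries held 6940375 to 17125156 reads on genes, and reads are given below as CPM (read counts scaled to a common library size) after TMM normalization. Reads of Hdac3, the targeted gene, gave 37.8 to 42.9 CPM in the 4 WT libraries and 5.54 to 7.45 CPM in the 4 Hdac3KO libraries, a log2 fold change of -2.61 (SE 0.18) at 0 hr and -2.75 (SE 0.19) at 24 hr, with adjusted p = 0.0003 and 0.0004. All 7 ESC marker genes examined (Pou5f1, Nanog, Sox2, Klf4, Esrrb, Zfp42 and Tfcp2l1) had 211 CPM or more in each of the 8 libraries. Between genotypes 0 of the 7 passed the call rule given below, which also asks for a log2 fold change beyond 1. Under that limit, Nanog and Zfp42 were higher in Hdac3KO, by 0.68 and 0.70 at 0 hr (adjusted p = 0.0039 and 0.0072). At 24 hr they were higher by 0.55 and 0.45 (adjusted p = 0.0103 and 0.0267). Hdac3KO replicates 1 and 2 differed from each other at 765 of 14081 genes, so the members are also given for each clone.

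The genotypes were compared at 0 hr and, in separate libraries of the same lines, at 24 hr, which asks whether ESCs without HDAC3 have other levels of piRNA pathway transcripts. At 0 hr, Piwil2, Asz1, Gtsf1 and Mael were higher in Hdac3KO and Tdrd12 was lower. At 24 hr, Piwil2, Asz1, Gtsf1, Mael and Mov10l1 were higher. A gene was called when the adjusted p of edgeR's quasi-likelihood test was under 0.05 and the log2 fold change beyond 1. At 0 hr, 5 of the 10 genes were called (4 higher, 1 lower), against 6.04% of the 14358 genes tested (2.55% higher, 3.49% lower). At 24 hr, 5 of the 9 genes tested were called, 5 higher and 0 lower, against 4.88% of 13790 genes (2.26% higher, 2.62% lower). Tdrd1 had too few reads to enter. Asz1 and Piwil4 at both times, and Gtsf1 at 24 hr, had a WT mean under the 5 reads per library asked for. They entered only through their Hdac3KO reads, so the calls of Asz1 and of Gtsf1 at 24 hr are not independent of that filter. The median log2 fold change of the members was 1.18 at both times, against 0.01 over all genes tested at either time. The members, and the gene lists used below, were chosen with earlier results of these data known, among them higher Piwil2 and Gtsf1. Their counts, medians and directions are therefore not independent evidence.

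**Figure D1:**
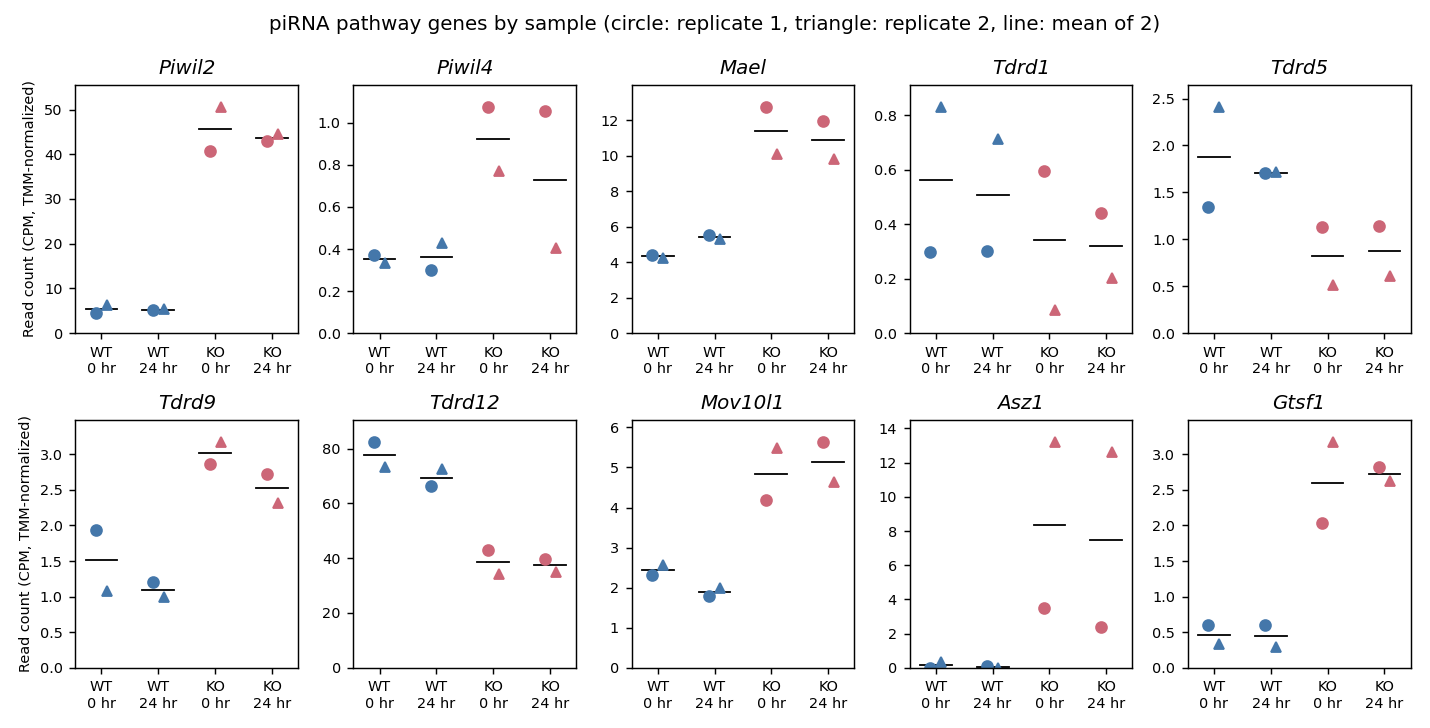
Each panel shows the CPM (TMM-normalized) of 1 gene in the 8 libraries on its own linear axis from 0, with circles for replicate 1, triangles for replicate 2 and a line at the mean of the 2. The Hdac3KO libraries (red) lie above every WT library (blue) for Piwil2, Mael, Tdrd9, Mov10l1, Asz1 and Gtsf1 and below for Tdrd5 and Tdrd12.

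**Figure D2:**
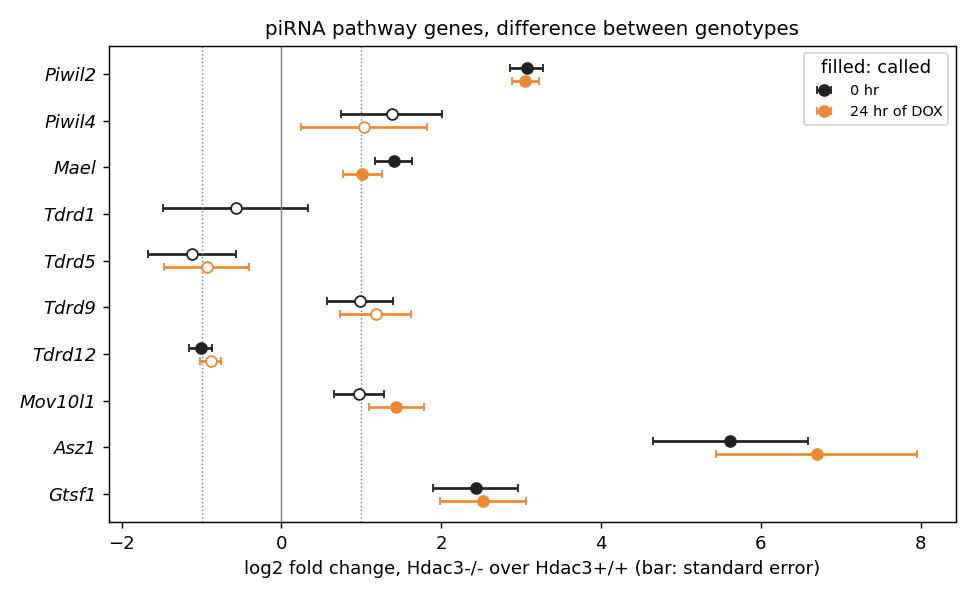
Points give the log2 fold change of Hdac3KO over WT for each gene at 0 hr (black) and 24 hr (orange), bars the standard error, and dotted lines the limit of 1 in either direction. Filled points passed the call rule. Piwil2 sat at 3.07 and 3.05, Asz1 at 5.62 and 6.70 with the widest bars, and Tdrd12 at -1.01 and -0.89.

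Of the PIWI proteins, Piwil2 was low but present in WT ESCs and high in Hdac3KO. WT libraries had 4.55 and 6.30 CPM at 0 hr and 5.10 and 5.42 CPM at 24 hr. Hdac3KO libraries had 40.7 and 50.5 CPM at 0 hr and 42.9 and 44.4 CPM at 24 hr. The lowest Hdac3KO library was thus far above the highest WT library at both times, on 440 to 683 against 38 to 76 reads per library. Piwil2 (chromosome 14, 70372477 to 70429383 in GRCm38, minus strand) rose by a log2 fold change of 3.07 (SE 0.21, adjusted p = 0.0003) at 0 hr and 3.05 (SE 0.17, adjusted p = 0.0002) at 24 hr. Its log2 fold change stayed between 2.85 and 3.32 at 0 hr and between 3.00 and 3.09 at 24 hr when any 1 library was left out, and it passed the call rule each time.

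Piwil4, which carries piRNAs in the nucleus, did not exceed 1.07 CPM in any library. WT libraries had 3 to 5 reads each, or 0.373 and 0.332 CPM at 0 hr and 0.300 and 0.428 CPM at 24 hr. Hdac3KO replicate 1 had 1.07 and 1.06 CPM at the respective times, on 18 and 12 reads. Replicate 2 had 0.771 and 0.404 CPM, and its 24 hr value lay inside the WT range. The log2 fold changes of 1.38 (SE 0.63) and 1.04 (SE 0.79) did not pass the test, with adjusted p = 0.189 and 0.446.

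Gtsf1 encodes a small zinc finger protein that binds PIWI proteins and is needed for transposon cleavage and silencing. It had 0.597 and 0.332 CPM in WT at 0 hr and 0.600 and 0.285 CPM at 24 hr, on 2 to 8 reads per library. In Hdac3KO it had 2.03 and 3.17 CPM at 0 hr and 2.81 and 2.63 CPM at 24 hr, on 26 to 37 reads. No Hdac3KO library overlapped a WT library. Gtsf1 (chromosome 15, 103402405 to 103430470, minus strand) rose by a log2 fold change of 2.43 (SE 0.53, adjusted p = 0.0219) at 0 hr and 2.52 (SE 0.54, adjusted p = 0.0234) at 24 hr. The call rests on both WT libraries, since adjusted p ran from 0.067 to 0.187 when either WT library of a time was left out, and DESeq2 gave 0.071 at 24 hr.

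Among the factors that make and handle piRNA precursors, Asz1 had the largest fold change of the 10 genes, and its level differed between the clones. WT libraries had 0 and 4 reads at 0 hr and 1 and 0 reads at 24 hr. Hdac3KO replicate 1 had 59 and 27 reads and replicate 2 had 154 and 125 reads at 0 hr and 24 hr. In CPM, Hdac3KO replicate 1 had 3.52 and 2.37 and replicate 2 had 13.2 and 12.6, while a WT library with 0 reads could hold up to 0.224 CPM at 0 hr and 0.428 CPM at 24 hr (3 reads). Pooled over libraries, the ratio of Hdac3KO to WT reads per effective library size was 47.7 at 0 hr (exact 95% interval 18.3 to 177) and 121 at 24 hr (21.5 to 4830). These intervals cover counting error only, and the one at 24 hr rests on 1 WT read. The fitted log2 fold changes were 5.62 (SE 0.96, adjusted p = 0.0087) and 6.70 (SE 1.26, adjusted p = 0.0146) for Asz1 (chromosome 6, 18050964 to 18109061, minus strand), and their size depends on how the near-empty WT group is handled. With 1 library left out they ran from 4.40 to 9.85 at 0 hr and from 5.06 to 9.14 at 24 hr. With voom and limma the adjusted p was 0.0537 at 0 hr and 0.0613 at 24 hr.

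Mael encodes the germ cell nuage protein Maelstrom. It had 4.40 and 4.23 CPM in WT at 0 hr and 5.50 and 5.28 CPM at 24 hr. In Hdac3KO it had 12.7 and 10.1 CPM at 0 hr and 12.0 and 9.80 CPM at 24 hr. All 4 Hdac3KO libraries were above all 4 WT libraries, with replicate 1 the higher of the clones each time. Mael (chromosome 1, 166201201 to 166238747, minus strand) rose by a log2 fold change of 1.40 (SE 0.23, adjusted p = 0.0076) at 0 hr and 1.01 (SE 0.25, adjusted p = 0.0369) at 24 hr, the latter just past the limit of 1. Adjusted p was 0.0506 at 0 hr without WT replicate 2, 0.237 and 0.256 at 24 hr without WT replicate 1 or 2, and 0.096 at 24 hr with DESeq2. Without Hdac3KO replicate 1 the log2 fold change at 24 hr was 0.85, under the limit.

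Mov10l1, the helicase of piRNA precursors, had 2.31 and 2.57 CPM in WT at 0 hr and 1.80 and 2.00 CPM at 24 hr. In Hdac3KO it had 4.18 and 5.48 CPM at 0 hr and 5.63 and 4.65 CPM at 24 hr. The genotypes did not overlap at either time, yet Mov10l1 (chromosome 15, 88982909 to 89055152, plus strand) was called only at 24 hr. Its log2 fold change was 0.97 (SE 0.31, adjusted p = 0.0789) at 0 hr and 1.44 (SE 0.35, adjusted p = 0.036) at 24 hr. The difference between these times was not itself significant (interaction 0.47, SE 0.41, adjusted p = 1.00). It was called at 0 hr without Hdac3KO replicate 1 (1.17, adjusted p = 0.0144), and lost at 24 hr with DESeq2 (adjusted p = 0.126) or without WT replicate 1 or 2 (0.272 and 0.209).

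Of the Tudor domain proteins, Tdrd12 was lower in Hdac3KO. TDRD12 is needed for the secondary piRNAs that load PIWIL4. It was the member with the most reads, 347 to 1103 per library. WT libraries had 82.3 and 73.4 CPM at 0 hr and 66.2 and 72.6 CPM at 24 hr, and Hdac3KO libraries had 43.0 and 34.2 CPM at 0 hr and 39.8 and 35.0 CPM at 24 hr. All 4 Hdac3KO libraries were below all 4 WT libraries. Tdrd12 (chromosome 7, 35469098 to 35537745, minus strand) fell by 1.01 on the log2 scale (SE 0.14, adjusted p = 0.0039) at 0 hr. At 24 hr the log2 fold change was -0.89 (SE 0.13), with an adjusted p of 0.0058 but under the fold limit. The 0 hr value lay at the limit too: it was -0.86 without Hdac3KO replicate 2 and -0.93 without WT replicate 1, each with an adjusted p under 0.05.

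Tdrd9, a helicase with a Tudor domain that acts with PIWIL4, had 1.94 and 1.08 CPM in WT at 0 hr and 1.20 and 0.999 CPM at 24 hr. Hdac3KO libraries had 2.86 and 3.17 CPM at 0 hr and 2.73 and 2.32 CPM at 24 hr, all above the WT libraries. The log2 fold changes of 0.98 (SE 0.41) and 1.18 (SE 0.44) did not pass the test, with adjusted p = 0.155 and 0.132. Tdrd5, which is needed for processing of pachytene piRNA precursors, had 1.34 and 2.40 CPM in WT at 0 hr and 1.70 and 1.71 CPM at 24 hr. In Hdac3KO it had 1.13 and 0.514 CPM at 0 hr and 1.14 and 0.606 CPM at 24 hr, all below WT, on 6 to 19 reads. Its log2 fold changes of -1.12 (SE 0.55) and -0.94 (SE 0.54) did not pass the test (adjusted p = 0.221 and 0.306), although without Hdac3KO replicate 1 the value at 0 hr was -1.83 with adjusted p = 0.0426. Tdrd1, a partner of PIWIL2, had 1 to 10 reads per library. Its WT range of 0.299 to 0.829 CPM overlapped the Hdac3KO range of 0.0857 to 0.597 CPM, and its log2 fold change at 0 hr was -0.57 (SE 0.91, adjusted p = 0.724).

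Over both times together, all 4 Hdac3KO libraries lay above all 4 WT libraries for 6 members and below for 2 (Tdrd5 and Tdrd12), while Piwil4 and Tdrd1 overlapped. Over the 14081 genes tested on all 8 libraries, 16.5% were all above and 16.9% all below.

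Levels were compared between genes as TPM, which divides reads by the exon length of each gene before scaling. In WT at 0 hr, Tdrd12 was the most abundant of the 10 transcripts with 66.9 ± 8.22 TPM (SD, n = 2), followed by Mael with 9.28 ± 0.653 and Piwil2 with 3.80 ± 0.711 TPM. Mov10l1 had 2.17 ± 0.0708 TPM. Gtsf1, Tdrd9 and Tdrd5 had 1.25 ± 0.555, 1.05 ± 0.463 and 0.998 ± 0.361 TPM, an order within their SD. Tdrd1, Piwil4 and Asz1 came last with 0.380 ± 0.241, 0.244 ± 0.0305 and 0.212 ± 0.300 TPM, again not separated by their spread. In Hdac3KO at 0 hr, Tdrd12 and Piwil2 stood side by side at 31.1 ± 5.43 and 30.1 ± 4.16 TPM, within their SD. Mael had 23.0 ± 3.997 TPM and Asz1 10.3 ± 8.32 TPM, a spread that covers the next gene. Gtsf1, Mov10l1 and Tdrd9 followed with 6.52 ± 1.95, 4.03 ± 0.721 and 1.95 ± 0.115 TPM. Piwil4, Tdrd5 and Tdrd1 remained under 1 TPM with 0.600 ± 0.147, 0.416 ± 0.226 and 0.220 ± 0.235 TPM, and neighbours among these 3 lay within the SD of Tdrd5 or Tdrd1. The 24 hr groups had the same first 5 genes in the same order as the 0 hr group of their genotype.

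The clones were also compared with each other, as replicate 1 against replicate 2 within Hdac3KO over both times. The 2 times served as repeats of each clone. These p-values therefore measure only how replicate differences varied between times, not the spread between independent samples of a clone. Asz1 was the 1 member called of 10, against 5.43% of 14081 genes, with a log2 difference of -2.10 (SE 0.22, adjusted p = 4.28e-10). Replicate 2 had 3.75 times the CPM of replicate 1 at 0 hr and 5.31 times at 24 hr. Tdrd12 differed by 0.26 (SE 0.09, adjusted p = 0.0149), under the fold limit. Piwil2 had replicate 2 to replicate 1 ratios of 1.24 and 1.04. Set against the WT mean of its own time, each clone was above WT at both times for Piwil2 (7.51 to 9.30 times), Mael (1.82 to 2.94 times), Tdrd9 (1.90 to 2.48 times), Mov10l1 (1.71 to 2.96 times), Gtsf1 (4.37 to 6.83 times) and Asz1 (21.2 to 252 times, on 4 WT reads at 0 hr and 1 at 24 hr). Piwil4, which did not pass the test, was at 1.11 to 3.05 times WT. Tdrd12 was at 0.439 to 0.574 times WT in each clone, and Tdrd5 and Tdrd1, which did not pass, at 0.274 to 0.670 and 0.152 to 1.06 times.

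The effect of 24 hr of DOX, and with it of Xist induction, was tested in each genotype. In WT, 0 of the 10 members were called, against 0.0355% of 14081 genes, and in Hdac3KO 0 of 10, against 0.0142%. At an unadjusted p under 0.05, edgeR also gave 0 of 10 members in each genotype, as did DESeq2 and voom with limma, and 1 member in WT when the replicate number entered the edgeR fit as a block. Member log2 fold changes ran from -1.28 to 0.32 in WT, where the lowest was that of Asz1 on 4 reads at 0 hr and 1 at 24 hr, and from -0.33 to 0.10 in Hdac3KO. The interaction of genotype and DOX, which asks whether DOX changed the genotypes unequally, gave 0 calls among the 10 members and 0 among all genes, and 0 members at an unadjusted p under 0.05 with any of these 3 tools.

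The cross of B6 and Cast allows reads over strain polymorphisms to be assigned to an allele. In WT and Hdac3KO the B6 share of all allelic reads in a library was 49.2% to 50.01%. Coverage differed widely between members, from 2103 allelic reads for Tdrd12 and 1060 for Piwil2 over the 8 libraries to 24 for Mov10l1 and 2 for Gtsf1. Piwil2, Tdrd12, Mael, Asz1 and Tdrd9 had a mean of at least 10 allelic reads over the 8 libraries. Asz1, Mael and Tdrd9 reached it only through Hdac3KO, with 0, 36 and 33 allelic reads over the 4 WT libraries, so their ratios are compared between genotypes as values only.

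**Figure D3:**
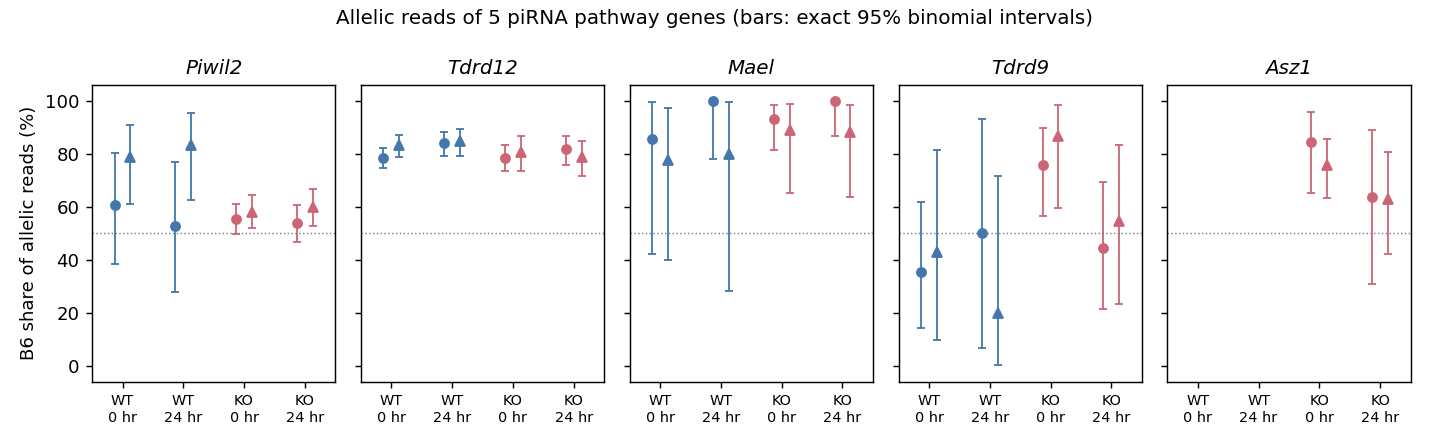
The B6 share of allelic reads (%) is shown for 5 genes in each library, with circles for replicate 1, triangles for replicate 2, exact 95% binomial intervals as bars and a dotted line at 50%. Tdrd12 and Mael lie above 50% in both genotypes, the Piwil2 points in Hdac3KO lie close to the line at 53.9% to 59.8%, and Asz1 has allelic reads in Hdac3KO only.

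Tdrd12 had a B6 share of 78.5% and 83.2% in WT at 0 hr and 84.1% and 84.8% at 24 hr, against 78.6% and 80.7% in Hdac3KO at 0 hr and 81.7% and 78.7% at 24 hr. The alleles of Tdrd12 thus kept nearly the same proportions while its total was lower in Hdac3KO: summed over libraries, the B6 share was 81.9% (exact 95% interval 79.7 to 83.9) in WT and 79.8% (76.8 to 82.5) in Hdac3KO, and the log2 B6:Cast ratio differed by -0.26 (SE 0.18, adjusted p = 0.622). Piwil2 reads in Hdac3KO came from both alleles, with a B6 share of 56.7% (53.5 to 59.9) on 963 reads. In WT the Piwil2 share was 71.1% (61.0 to 79.9) on 97 reads, with 60.9% and 52.9% in replicate 1 and 78.8% and 83.3% in replicate 2. The difference of -0.88 in log2 B6:Cast ratio (SE 0.37, adjusted p = 0.306) did not pass the test.

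Mael reads were mostly from B6, with 88.9% (73.9 to 96.9) in WT and 93.3% (86.7 to 97.3) in Hdac3KO, on 36 and 105 reads. Asz1 had 0 allelic reads in WT, so its change between genotypes could not be fitted by allele. In Hdac3KO its B6 share was 73.8% (65.2 to 81.2) on 126 reads, with 84.6% and 63.6% in replicate 1 and 75.8% and 63.0% in replicate 2. Both alleles of Asz1 therefore gave reads in both clones. Tdrd9 had 36.4% (20.4 to 54.9) in WT on 33 reads and 67.1% (55.1 to 77.7) in Hdac3KO on 73 reads. Within Hdac3KO it was 75.9% and 86.7% at 0 hr but 44.4% and 54.5% at 24 hr.

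Between genotypes, 0 of 2 members with enough allelic reads in both genotypes (Piwil2 and Tdrd12) had a called difference in B6:Cast ratio, against 2.26% of 10981 genes called at an adjusted p under 0.05. At an unadjusted p under 0.05, 1 of the 2 (Piwil2) would pass in edgeR, the one tool used for this ratio. Within Hdac3KO, all 5 members with a mean of at least 10 allelic reads had more B6 than Cast reads in sum. Of these, 4 were called so, against 22.1% of genes called with B6 higher and 42.8% in either direction. The 4 called were Mael (log2 ratio 3.80, SE 0.52, adjusted p = 5.27e-06), Tdrd12 (1.98, SE 0.13, adjusted p = 8.78e-11), Asz1 (1.33, SE 0.36, adjusted p = 0.0065) and Piwil2 (0.39, SE 0.14, adjusted p = 0.0262). Asz1, Mael and Tdrd9 entered this count only through their Hdac3KO reads. At a mean of 20 allelic reads Piwil2 and Tdrd12 alone were tested, and both were called. The Piwil2 call was lost without replicate 1 at 0 hr, replicate 2 at 0 hr or replicate 2 at 24 hr (adjusted p = 0.0517, 0.0989 and 0.163), and that of Asz1 without replicate 2 at 24 hr (0.0729).

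A wider list of 22 other piRNA pathway genes, of which 20 had a row in the tables, gave the setting of the 10. At 0 hr, 4 of the 19 tested were called higher and 0 lower, against 2.55% and 3.49% of all genes, with a median log2 fold change of 0.60 against 0.01 over all genes. At 24 hr, 5 of 18 were called higher and 0 lower, against 2.26% and 2.62%, with a median of 0.91. Tex15, an effector of piRNA-directed DNA methylation, had 34.6 and 35.5 CPM in WT and 103 and 120 CPM in Hdac3KO at 0 hr, a rise of 1.66 (SE 0.12, adjusted p = 0.0003). Stk31, which encodes a germ cell Tudor domain protein, had 7.91 and 7.13 against 24.3 and 25.2 CPM at 0 hr, a rise of 1.72 (SE 0.17, adjusted p = 0.0011).

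Ddx4, the germ cell RNA helicase VASA, rose by 1.24 (SE 0.21, adjusted p = 0.0087) and Fkbp6, a co-chaperone of piRNA biogenesis, by 1.15 (SE 0.14, adjusted p = 0.0022) at 0 hr. At 24 hr the log2 fold changes of Tex15, Stk31, Ddx4 and Fkbp6 were 1.67, 1.84, 1.47 and 1.00. Their adjusted p-values were 0.0006, 0.002, 0.0134 and 0.008, and the call of Fkbp6 lay at the limit of 1. Piwil1, the third mouse PIWI gene, was called at 24 hr only, with a log2 fold change of 1.54 (SE 0.29, adjusted p = 0.0143) against 0.91 (SE 0.33, adjusted p = 0.108) at 0 hr. Its WT libraries had 2.71 to 4.56 CPM and its Hdac3KO libraries 5.61 to 9.51 CPM. The number called at 24 hr ran from 2 without WT replicate 1 and 3 without WT replicate 2 to 9 without Hdac3KO replicate 2. Morc1 had 193 to 216 CPM in WT and 109 to 135 CPM in Hdac3KO. Its log2 fold change at 0 hr was -0.74 (SE 0.11, adjusted p = 0.0044), under the fold limit like that of Tdrd12 at 24 hr. Also under that limit, Rnf17 was higher at 0 hr (0.47, adjusted p = 0.0339) and at 24 hr (0.70, adjusted p = 0.0225). At 24 hr Morc1 was at -0.69 (adjusted p = 0.0101) and Mybl1 at 0.76 (adjusted p = 0.0443).

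**Figure D4:**
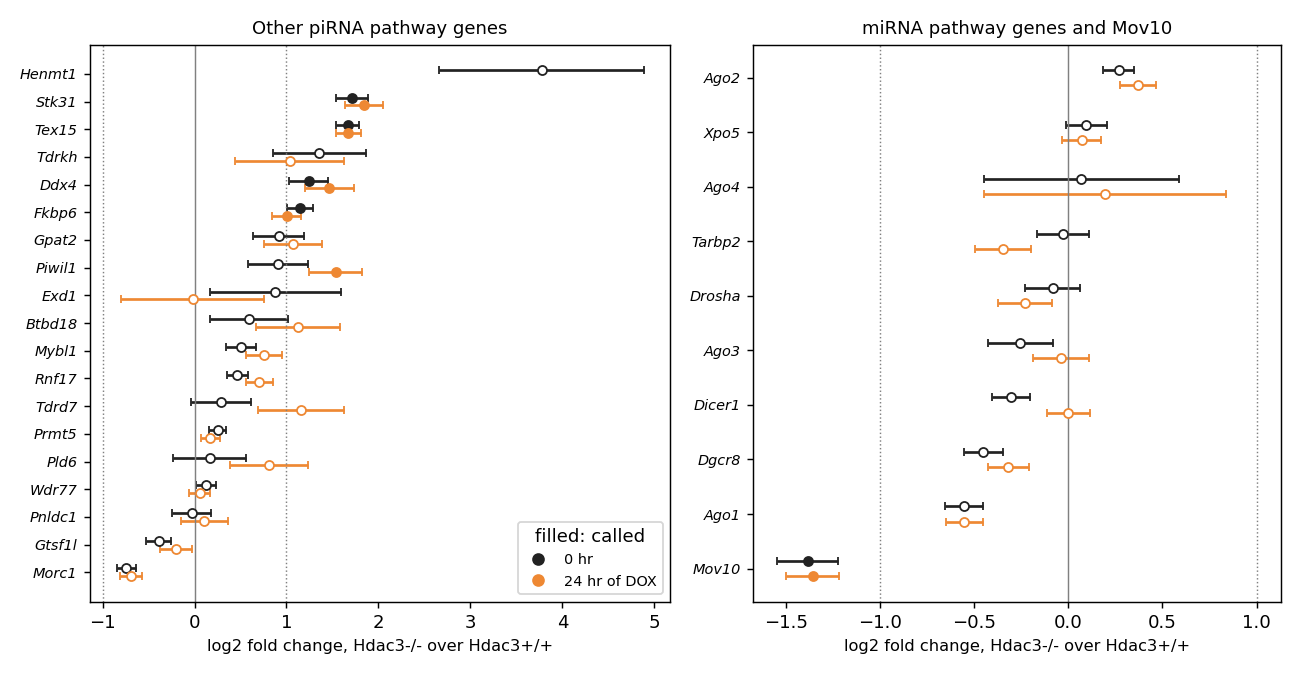
Points give the log2 fold change of Hdac3KO over WT at 0 hr (black) and 24 hr (orange) with standard errors for other piRNA pathway genes (left) and for miRNA pathway genes with Mov10 (right), and filled points passed the call rule. On the left Stk31, Tex15, Ddx4 and Fkbp6 are called higher at both times, and on the right Mov10 alone is called, at -1.39 and -1.36.

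Genes of the miRNA pathway, the small RNA pathway that ESCs use, served for comparison. Of 10 genes tested (Ago1 to Ago4, Dicer1, Drosha, Dgcr8, Xpo5, Tarbp2 and the Mov10l1 paralog Mov10), 0 were called higher and 1 lower at each time. Over all genes, 2.55% were called higher and 3.49% lower at 0 hr, and 2.26% and 2.62% at 24 hr. The median was -0.17 at 0 hr and -0.14 at 24 hr. Under the fold limit, Ago1 (-0.55, adjusted p = 0.0115) and Dgcr8 (-0.45, adjusted p = 0.0255) were lower at 0 hr. At 24 hr Ago1 (-0.55, adjusted p = 0.0116) was lower and Ago2 (0.37, adjusted p = 0.048) higher. The gene called was Mov10, a helicase of the Argonaute complexes, which had 324 to 421 CPM in WT and 123 to 163 CPM in Hdac3KO. It fell by 1.39 (SE 0.16, adjusted p = 0.0019) at 0 hr and by 1.36 (SE 0.14, adjusted p = 0.0014) at 24 hr on the log2 scale, while Mov10l1 rose at 24 hr.

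Markers of other cell types were measured in the same libraries, since the members are expressed in germ cells. Male germ cell markers (Zbtb16, Gfra1, Stra8, Prm1, Prm2 and Acrv1) summed to 0.428 to 1.501 CPM in WT and 1.97 to 4.83 CPM in Hdac3KO, with 0 of the 2 tested called at 0 hr, Prm1 at 0 in every library and Acrv1 at 0 in every Hdac3KO library. Of these, Stra8 had 0 to 0.600 CPM in WT and 0.942 to 3.16 CPM in Hdac3KO. Its log2 fold change was 3.38 (SE 0.96, adjusted p = 0.0543) at 0 hr and 2.29 (SE 0.62, adjusted p = 0.0519) at 24 hr. Stra8 entered both tests only through its Hdac3KO reads. Of 6 primordial germ cell markers, 0 were called higher and 2 lower at each time (Prdm1 at -1.62 and Dppa3 at -2.21 at 0 hr). Over all genes, 2.55% were called higher and 3.49% lower at 0 hr, and 2.26% and 2.62% at 24 hr. Under the fold limit at 0 hr, Kit (0.68), Prdm14 (0.42) and Tfap2c (-0.63) had adjusted p = 0.0039, 0.037 and 0.0234. At 24 hr Kit alone did so, at 0.54 (adjusted p = 0.0151). The list summed to 368 to 396 CPM in WT and 378 to 403 CPM in Hdac3KO. Markers of the 2-cell-like state summed to 4.73 to 7.99 CPM in WT and 0.257 to 3.997 CPM in Hdac3KO. Primitive endoderm markers summed to 5.28 to 7.24 and 5.28 to 7.37 CPM, and primed epiblast markers to 169 to 184 and 107 to 126 CPM. In the 2-cell-like, primitive endoderm and primed epiblast lists 0 genes were called at either time. Under the fold limit, the primed epiblast marker Dnmt3b was lower, at -0.65 (adjusted p = 0.0057) at 0 hr and -0.60 (adjusted p = 0.0101) at 24 hr. The part of these cell states in the results was not tested, and in bulk RNA more cells with a transcript cannot be told apart from more transcript per cell.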

How the data were processed

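RNA-seq of TX1072 ESCs was analysed from 1 table per library. Per the labels and the study's methods, the authors depleted rRNA during library preparation, removed rRNA reads, mapped paired reads to mm10 with TopHat2 2.1.0 and counted reads over exons by strand with featureCounts 1.5.1. The deposited values are raw counts per gene symbol (total, B6 and Cast), and the d-score, a fraction that the authors computed as B6 over allelic reads for genes with at least 10 of them; shares were recomputed here from the counts.

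Tests used edgeR 4.0.16 (R 4.3.3), with TMM normalization, on genes with a mean of at least 5 reads per library in the fit (10 allelic reads for allele tests), adjusted by Benjamini-Hochberg over all genes tested. Genotypes were compared on the 4 libraries of 1 time, as the study's methods do for 0 hr, and all other contrasts used all 8 libraries. Alternatives used DESeq2 1.42.0 and limma 3.58.1. Scripts were tested on simulated data. Standard errors are the log2 fold change over the square root of F. TPM and positions used GENCODE M21, which matched 23882 of 24542 symbols and all 10 members. Exons of Piwil4 and Tdrd5 overlap antisense genes not used here. Intervals are exact at 95% and cover counting error only. An exact permutation test of 2 against 2 libraries cannot give a p below 0.333, so none was used. The 45S precursor Rn45s took 7.03% to 8.31% of reads.

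All 10 members are named, the called genes of each list, the nearest tested gene on either side of a member where called at 0 hr, and the 5 genes most like the members' mean. Members and lists were chosen with earlier results of these data known.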

Additional observations from a re-analysis of the deposited data

How the results depend on the processing

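Piwil2 passed the call rule at both times under every alternative run. Members called at 0 hr were 5, and 3 to 7 when 1 library was left out; at 24 hr they were 5, 2 with DESeq2 and 2 to 5 with 1 library left out. The other piRNA pathway genes called were 4 at 0 hr (3 to 6 with 1 library left out) and 5 at 24 hr (2 to 9). Without a fold limit, 2 members in place of 1 differed between the clones. In the B6:Cast ratio of Hdac3KO, 4 members were called, 2 at a mean of 20 allelic reads and 2 to 4 with 1 library left out. Tdrd1 changed sign at 0 hr, from -2.56 to 0.29 with 1 library left out. These causes were not tested. Leaving out 1 library leaves a group with 1 sample, assumed to vary like the others.

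Over all genes at 0 hr, 867 were called, 1851 without a fold limit and 482 to 1446 with 1 library left out; at 24 hr 673, 1427 without a fold limit, 1063 without a filter and 302 to 1165. For DOX in WT, 5 were called, 3 with voom, 23 with DESeq2, 58 without a filter, 25 without a fold limit and 2 to 18 with 1 library left out; in Hdac3KO 2, and 7 without a filter. The interaction called 0, 1 with DESeq2 and 2 without a filter. The clone contrast called 765, and 4497 without a fold limit, and the B6:Cast contrast between genotypes 248, and 98 to 337 with 1 library left out. Member calls for DOX and the interaction stayed at 0 in each alternative. Library sizes without Rn45s, an alternative chosen after seeing the data, left 5 members called at each time.

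The labels do not say that replicate numbers pair the libraries. Differences between replicates correlated over genes at 0.66 between the Hdac3KO times, 0.30 between the WT times and 0.19 to 0.23 between genotypes. With a replicate block, 5 members were called at 0 hr, 5 at 24 hr and 0 for DOX and the interaction, where 1 member (Tdrd12 in WT) had an unadjusted p under 0.05. The block changed the number of all genes called to 1143 at 0 hr, 990 at 24 hr, 104 for DOX in WT, 12 in Hdac3KO, 10 for the interaction and 701 for the B6:Cast contrast.

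Piwil4, Tdrd1 and Tdrd5, and Asz1 and Gtsf1 in WT, had fewer than 30 reads per library, so counting error alone is large: the exact 95% interval of the ratio at 0 hr was 1.23 to 6.49 for Piwil4, 0.289 to 1.67 for Tdrd1 and 0.281 to 0.790 for Tdrd5.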

Other observations

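The nearest tested gene on each side of each member gave 20 neighbours, of which 3 were called higher and 1 lower in Hdac3KO at 0 hr, against 2.55% and 3.49% of all genes. Beside Piwil2, Slc39a14 (a metal transporter, 21052 bases away) rose by a log2 fold change of 1.22 (SE 0.22, adjusted p = 0.0104). Beside Asz1, Cftr (a chloride channel, 61626 bases away) had 0 and 0 reads in WT and 9 and 14 in Hdac3KO at 0 hr, and 0 and 1 against 2 and 11 at 24 hr, with a fitted log2 fold change of 6.52 at 0 hr (adjusted p = 0.0331). Cftr entered that test only through its Hdac3KO reads. Its call, and its place among the neighbours called higher, are therefore not independent of the read filter. Replicate 2 was the higher of the clones in Cftr reads at both times, as it was for Asz1. Beside Gtsf1, the integrin gene Itga5 rose by 1.54 (SE 0.20, adjusted p = 0.0028) while Nckap1l, on the other side, fell by 1.12 on the log2 scale (SE 0.28, adjusted p = 0.0337). Under the fold limit but with an adjusted p under 0.05, and named after their values were seen, were Polr3d beside Piwil2 (0.88, adjusted p = 0.0183), Nudt19 beside Tdrd12 (-0.97, adjusted p = 0.0158) and Gpa33 beside Mael (-0.64, adjusted p = 0.0089), the last opposite in sign to its neighbour.

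The genes whose log2 CPM over the 8 libraries was most like the mean pattern of the members were Limk1 (Pearson r = 0.991), Pcgf3 (0.991), Ccng1 (0.985), Tns4 (0.984) and Btg2 (0.984). The 8 libraries share clones and lines, so these values describe the pattern only. Of them, Tns4 had 0.600 to 1.12 CPM in WT and 2.42 to 7.28 CPM in Hdac3KO, and Ccng1, a p53 target, 166 to 186 and 283 to 342 CPM. Among the members, r with that mean was 0.92 for Piwil2, 0.93 for Mael, 0.75 for Asz1 and -0.83 for Tdrd12.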
